A study of Mus musculus with 48 samples.

Results

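The remnant kidney of FVB mice 53 days after subtotal nephrectomy was compared, gene by gene, with the whole kidney of sham-operated FVB mice on the same day. Arrays were taken by their titles alone: 4 arrays titled Nephrectomized, FVB, 53 Days (Nx mice 4, 7, 8 and 10) and 4 titled Sham Operated, FVB, 53 Days (sham mice 1, 3, 5 and 6), which are 8 of the 48 arrays of the series. The features described were the 13174 genes that passed a filter on low values, out of 45101 probe sets on the array, with the probe set of highest mean level standing for each gene. The series profiled whole-kidney RNA of FVB mice, which its design text calls predisposed to kidney lesions, and of C57BL/6 mice, which it calls not predisposed. Mice of both strains were operated at 9 weeks of age and studied 2, 28 or 53 days later, in 12 groups of 4 arrays. Besides the FVB Nx and FVB sham kidneys of day 53, the groups used here are the C57BL/6 Nx and C57BL/6 sham kidneys of day 53, the FVB Nx and FVB sham kidneys of day 28, and the FVB Nx and FVB sham kidneys of day 2. The labels give no genetic change and no drug in any group, and give neither the sex of the mice nor the amount of kidney removed. Every array carries its own mouse number within its group, so the arrays of a group were read as different animals. The standard errors below come from the spread between animals within groups, pooled over all 12 groups, not from the FVB day 53 animals alone.

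Removing most of the kidney mass leaves a remnant in which the surviving nephrons enlarge and filter more, and in susceptible rodents this early compensation gives way to tubular injury, interstitial inflammation, scarring and loss of specialised epithelial functions. Injured tubule cells secrete lipocalin and chemokines, shed adhesion molecules and lose transporters, while fibroblasts and pericytes lay down collagen and macrophages gather between the tubules. Each nephron segment is recognised by its own transporters, from the proximal tubule, which reabsorbs most solutes and runs on mitochondrial respiration, to the collecting duct, which sets final salt, water and acid excretion. These arrays measured bulk tissue, in which fewer cells of a type and less RNA per cell cannot be told apart.

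Values are log2 probe set values as deposited, and a difference of 1 on this scale is a 2-fold difference. Differences between Nx and sham kidneys are given with the standard error from limma, a linear model fitted to all 48 arrays, and called at a Benjamini-Hochberg adjusted p under 0.05 over all 13174 genes. Values of different genes come from different probe sets and are not set against each other. Where no array of a group exceeded 2.28, the value the filter used, the fold is given as a lower limit ("at least N-fold"). Equal values above 2.28 on several arrays of a group, as in Lcn2, Krt20 and Serpina3n, were not treated in this way. The kidney label was borne out on all 8 arrays by high values of segment markers, such as the loop of Henle protein gene Umod, which lay between 14.56 and 15.25. RNA of neighbouring tissues was present on some arrays. Of 17 pancreatic enzyme genes, 17, 17, 14 and 10 lay above the filter value in Nx mice 4, 7, 8 and 10, against 4 to 8 in sham mice. Their mean was 3.25 to 13.51 on the Nx arrays, highest in mouse 7 and next in mouse 4, against 2.90 to 2.97 on the sham arrays (exact permutation p = 0.0286, the smallest p that 4 against 4 arrays allow; adjusted over 5 array measures, 0.0476). Of 6 adrenal cortex genes, 6 and 5 lay above the filter value in Nx mice 8 and 10 and 1 on each other array. Cyp11b1, of corticosteroid synthesis, read 9.66 and 8.95 in Nx mice 8 and 10 and lay at the lowest value of the data, 2.20, on the other 6 arrays. Skeletal muscle genes were high in Nx mouse 7 and, less so, in Nx mouse 8, with Tnnc2 at 9.84 and 6.84 there and at the lowest value on the other 6 arrays. The brown fat gene Ucp1 read 6.27, 6.14 and 7.13 in sham mice 3, 5 and 6. The red cell gene Hba-a1 was at the lowest value on all 8 arrays. It did not exceed 2.2001 on the other 40 arrays of the series, so it cannot show whether blood was present. The 3′ minus 5′ difference of the Actb control probe sets averaged 1.91 in Nx and 2.17 in sham kidneys (exact permutation p = 0.0286, adjusted 0.0476), and the array median averaged 3.35 in Nx and 3.18 in sham kidneys (p = 0.0286, adjusted 0.0476). The Gapdh 3′ minus 5′ difference (exact permutation p = 0.1429, adjusted 0.1786) and the share of probe sets at the lowest value (p = 0.5429) did not pass. With the pancreatic mean as a covariate 7103 genes passed in the comparison below and with quantile normalisation 7495, against 7075 in the fit used here; the part of the Actb difference was not tested.

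**Figure D1:**
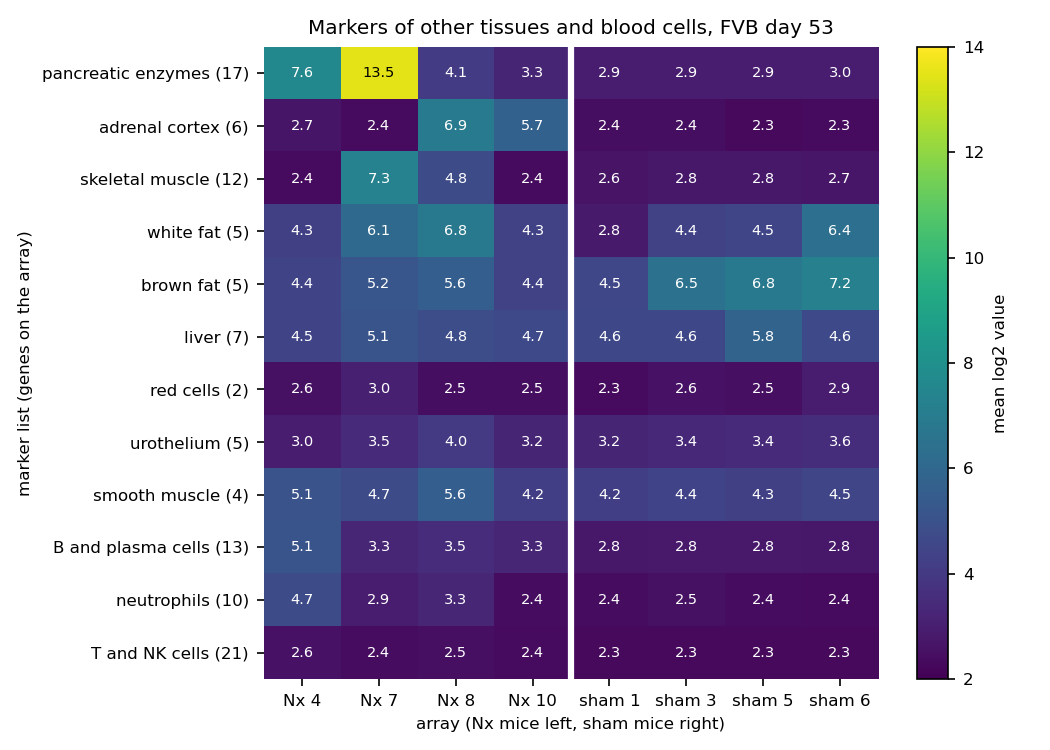
Mean log2 value of marker lists of other tissues and of blood cells on each of the 8 FVB day 53 arrays, Nx mice on the left and sham mice on the right, before the filter on low values; each cell is the mean over the list's genes. Pancreatic genes are highest in Nx mouse 7 and next in Nx mouse 4, and skeletal muscle genes in Nx mouse 7 and next in Nx mouse 8. Nx mice 8 and 10 carry the adrenal genes and Nx mouse 4 the B cell and neutrophil genes, while sham mice 3, 5 and 6 carry brown fat genes.

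At day 53 the FVB remnant kidney differed from the sham kidney over much of the transcriptome, with genes of injury, scarring and inflammation higher and genes of the distal nephron, proximal transport and mitochondria lower. Of 13174 genes, 7075 passed the threshold, which is 53.7% of those tested: 3412 were higher (25.9%) and 3663 lower (27.8%) in Nx kidneys. At least 2-fold and past the threshold were 1233 higher genes (9.36%) and 813 lower genes (6.17%). The 4 Nx values all lay above the 4 sham values for 2920 genes (22.2%) and all below for 3157 genes (24%). The median difference over all genes was -0.006, and shifting every array to 1 median moved it to -0.17 and the split to 2473 higher and 5872 lower genes. Without the 2 Nx arrays with a pancreatic mean above 5, mice 4 and 7, 6261 genes passed, 3295 higher and 2966 lower. Without the 3 arrays of the series with adrenal RNA, which are those of Nx mice 8 and 10 and 1 array of a group not used here, 6283 passed, 2800 higher and 3483 lower.

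Lcn2, the gene of the secreted iron-binding protein lipocalin 2, rose most. It read 12.92, 12.18, 12.75 and 12.14 in Nx mice 4, 7, 8 and 10, against 4.17, 4.45, 4.17 and 4.17 in sham mice 1, 3, 5 and 6. Every Nx array was thus far above every sham array, and the difference was 8.26 ± 0.44 (limma, adjusted p = 5.87e-18). Sham mice 1, 5 and 6 held 1 equal value, 4.1727, and whether it is a floor of the probe set was not tested. The other 11 genes with the highest differences among those without overlap were the monocyte-attracting chemokine genes Ccl8 (7.67) and Ccl12 (6.48), the macrophage elastase gene Mmp12 (7.07), the protease inhibitor gene Timp1 (7.00), the macrophage membrane gene Ms4a6d (6.56), the kidney injury molecule gene Havcr1 (6.48), the hyaluronan receptor gene Cd44 (6.41), the matrix gene Ltbp2 (6.36), the ubiquitin-like modifier gene Ubd (6.01), the muscle repeat protein gene Ankrd1 (5.95) and the pancreatic trypsinogen gene Prss2 (6.54, adjusted p = 0.0468). Prss2 read 10.05, 15.02, 7.13 and 5.18 in Nx mice 4, 7, 8 and 10, against 2.75, 3.04, 2.41 and 3.03 in sham mice 1, 3, 5 and 6, with mouse 7 highest, in the order of the pancreatic RNA described above. Its call was lost without any 1 of Nx mice 4 and 7 and the sham mice, and without mouse 7 the difference was 4.65 (adjusted p = 0.193). Timp1 was at or under the filter value on all 4 sham arrays and at 9.55, 8.82, 9.11 and 9.31 in Nx mice 4, 7, 8 and 10, which makes it at least 121-fold higher.

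**Figure D2:**
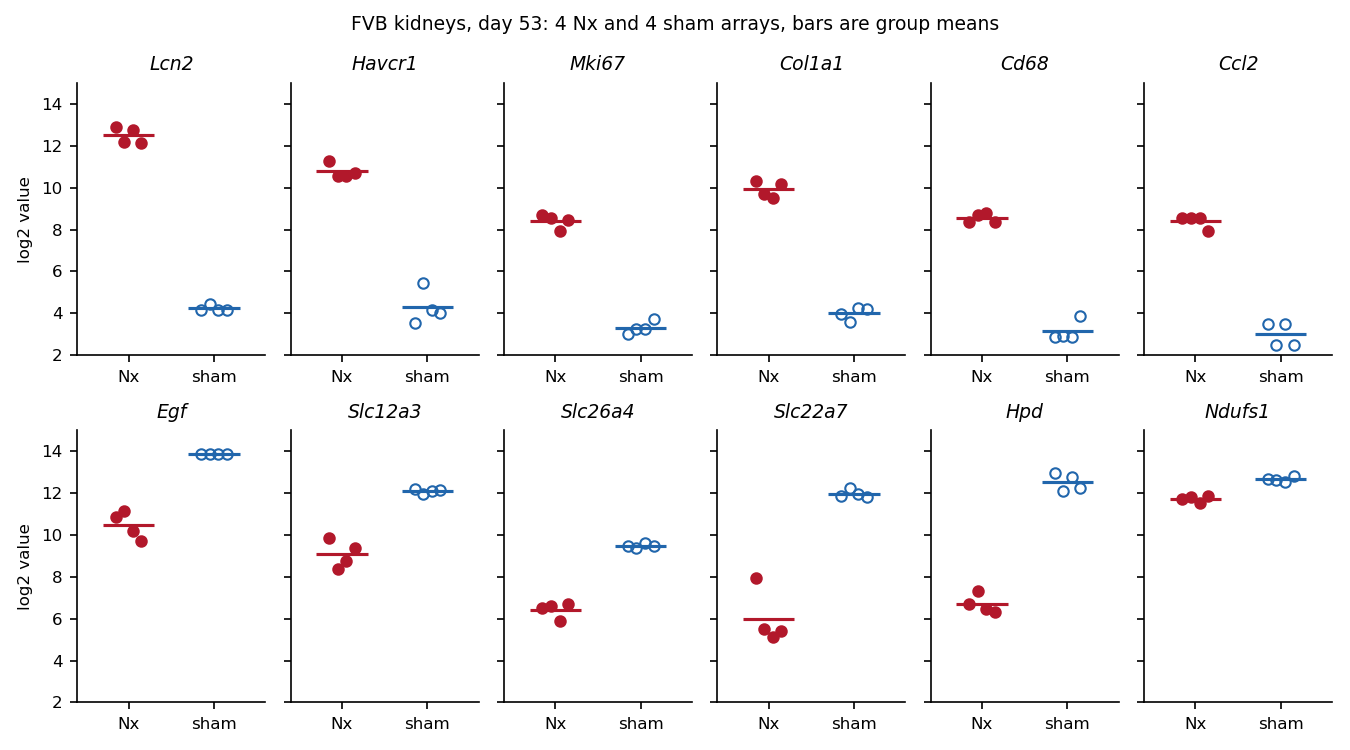
Log2 values of 12 genes in the 4 FVB Nx kidneys (left, filled circles) and the 4 FVB sham kidneys (right, open circles) of day 53; bars are group means. Upper row, genes that rose. Lower row, genes that fell. The 12 genes were picked for the figure, and none overlaps between groups. Over all genes the Nx values lay wholly above the sham values for 22.2% and wholly below for 24%.

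The largest fall was that of Cyp2d12, a cytochrome P450 gene, which read 3.05, 3.53, 2.83 and 3.01 in Nx mice 4, 7, 8 and 10, against 10.16, 9.18, 9.60 and 9.66 in sham mice 1, 3, 5 and 6. All Nx values lay close to the low end of the scale and more than 5 log2 units under the lowest sham value, with a difference of -6.55 ± 0.49 (adjusted p = 4.4e-14). The next falls were of the organic anion transporter gene Slc22a7 (-5.97), the tyrosine breakdown gene Hpd (-5.83), the calcium-binding parvalbumin gene Pvalb of the distal convoluted tubule (-5.49), the betaine-homocysteine methyltransferase gene Bhmt (-5.27), the histidine decarboxylase gene Hdc (-5.18), the water channel gene Aqp4 (-5.14), the complement gene C8a (-5.07), the corticosteroid-binding globulin gene Serpina6 (-4.99), the synapsin gene Syn3 (-4.81), the phosphate transporter family gene Slc17a2 (-4.35) and the brush border meprin gene Mep1b (-4.26). Serpina6 lay at or under the filter value on all 4 Nx arrays and read 6.26, 6.75, 6.68 and 9.08 in sham mice 1, 3, 5 and 6, which is at least 30.2-fold lower in Nx kidneys. Without sham mouse 6, its highest value, the difference was -4.36.

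Genes by which injured tubule cells are recognised were higher in the remnant. Of 17 measured members of the tubular injury list, 15 rose, none fell and 2 did not pass, with a median of 2.26 against -0.006 over all genes. Havcr1, which encodes a phagocytic receptor shed by injured proximal tubules, read 11.28, 10.58, 10.56 and 10.68 in Nx mice 4, 7, 8 and 10, against 3.54, 5.45, 4.16 and 4.03 in sham mice 1, 3, 5 and 6, a difference of 6.48 ± 0.56. Krt20, a keratin of terminally differentiated epithelia, had the smallest p of the list and read 8.15, 8.65, 8.28 and 8.04 in Nx mice 4, 7, 8 and 10, against 3.05, 2.99, 3.05 and 3.05 in sham mice 1, 3, 5 and 6. Both genes were low on every sham array and high on every Nx array. Krt20 held 1 equal value, 3.0479, in sham mice 1, 5 and 6. The adhesion molecule gene Vcam1 rose by 4.58 ± 0.22, the receptor gene Tnfrsf12a by 3.63 ± 0.29, the clusterin gene Clu by 1.83 ± 0.096 and the progenitor transcription factor genes Sox4 and Sox9 by 2.26 ± 0.16 and 1.75 ± 0.21. The keratin genes Krt8, Krt18 and Krt19 rose by 1.58, 1.44 and 3.16. Prom1 (-0.0016 ± 0.085) and the integrin gene Itgb6 (0.089 ± 0.30) did not pass.

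Genes of DNA synthesis and mitosis were higher together with the cell cycle inhibitor Cdkn1a. Of 39 measured cell cycle genes, 30 rose, none fell and 9 did not pass, with a median of 2.02. The proliferation marker Mki67 read 8.71, 8.57, 7.91 and 8.45 in Nx mice 4, 7, 8 and 10, against 3.02, 3.25, 3.25 and 3.71 in sham mice 1, 3, 5 and 6. The replication helicase subunit Mcm6 read 8.52, 8.52, 8.42 and 8.91 in Nx mice 4, 7, 8 and 10, against 3.35, 3.99, 4.03 and 4.91 in sham mice 1, 3, 5 and 6. In both genes all Nx values were above all sham values, with differences of 5.10 ± 0.42 and 4.52 ± 0.30. Top2a rose by 3.92 ± 0.38, Cdk1 by 3.64 ± 0.33 and Mcm5 by 2.79 ± 0.25, whereas Tk1 (0.82 ± 0.39), Tyms (-0.066 ± 0.13) and Ube2c (-0.12 ± 0.33) did not pass. Among 17 cell cycle inhibitors and p53 targets 12 rose and 1 fell. Cdkn1a, the p21 inhibitor, read 7.96, 7.89, 8.85 and 8.03 in Nx mice 4, 7, 8 and 10, against 5.55, 5.00, 4.98 and 5.15 in sham mice 1, 3, 5 and 6, without overlap, and the p53 target genes Eda2r and Btg2 rose by 2.30 ± 0.29 and 1.44 ± 0.20. The member that fell was Cdkn1c, the p57 inhibitor found in podocytes (-1.52 ± 0.22).

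Immediate early genes, which code for transcription factors induced within minutes of a stimulus, rose in 12 of 16 cases and none fell. Myc rose by 3.85 ± 0.30, Atf3 by 4.52 ± 0.48 and Egr2 by 5.03 ± 0.51, while Fos, at 1.65 ± 0.77, had a wide spread and did not pass. The EGF receptor ligands divided. Egf, made by the loop of Henle and distal convoluted tubule, read 10.85, 11.15, 10.16 and 9.69 in Nx mice 4, 7, 8 and 10, against 13.85, 13.88, 13.87 and 13.88 in sham mice 1, 3, 5 and 6. Hbegf, an injury-induced ligand, read 9.02, 8.52, 9.16 and 8.98 in Nx mice 4, 7, 8 and 10, against 6.48, 7.36, 6.83 and 7.20 in sham mice 1, 3, 5 and 6. The groups did not overlap for either gene, with Egf lower by 3.41 on the log2 scale in Nx kidneys and Hbegf higher by 1.95 ± 0.17. Of the 9 measured receptors and ligands 4 rose, Hbegf, Nrg1 (1.94), Ereg (1.22) and Egfr (0.49), and 3 fell, Egf, Btc (-1.91) and Erbb2 (-1.02). Of 14 Nrf2 antioxidant targets 5 rose, led by Cbr3 (2.55 ± 0.39), 1 fell and 8 did not pass, and of 18 unfolded protein and amino acid stress genes 5 rose, led by the asparagine synthetase gene Asns (2.43 ± 0.45), 3 fell and 10 did not pass. The share of stress genes that rose is close to the 25.9% of all genes and the share that fell is under the 27.8% of all genes, and fitted to the 8 arrays alone 2 of them were higher. With every array shifted to 1 median, 4 antioxidant genes and 6 of the stress genes were lower, and without Nx mouse 4, 5 of the stress genes were lower.

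Genes of scar matrix were higher in the remnant. All 17 measured collagen chain genes rose, with a median of 2.93. The fibrillar chain gene Col1a1 read 10.32, 9.70, 9.53 and 10.18 in Nx mice 4, 7, 8 and 10, against 3.99, 3.57, 4.25 and 4.20 in sham mice 1, 3, 5 and 6. No Nx value came near the sham range, and the difference was 5.93 ± 0.42. Col3a1 rose by 4.58 ± 0.33, Col5a2 by 5.37 ± 0.37, Col12a1 by 4.70 ± 0.36, and the basement membrane chains Col4a1 and Col4a2 by 2.43 ± 0.15 and 2.10 ± 0.15. Of 28 matrix glycoprotein and proteoglycan genes 23 rose, none fell and 5 did not pass. Ltbp2, a microfibril protein gene, read 9.35, 8.03, 9.24 and 8.76 in Nx mice 4, 7, 8 and 10, against 2.40, 2.40, 2.67 and 2.50 in sham mice 1, 3, 5 and 6. Its sham values lay near the low end of the scale, and Fn1, Lox, Thbs1 and Fmod rose by 3.42, 4.77, 2.77 and 4.24. Vcan (-0.24 ± 0.77) and Fbln5 (0.16 ± 0.11) did not pass. Of 21 matrix proteases and their inhibitors 14 rose and 7 did not pass. Mmp12 read 9.09, 9.46, 9.59 and 10.02 in Nx mice 4, 7, 8 and 10, against 2.20, 2.33, 2.56 and 2.82 in sham mice 1, 3, 5 and 6. The groups were separated by more than 6 log2 units, and Mmp2 rose by 3.71 ± 0.33 and Adamts1 by 2.40 ± 0.17, while Timp3 (-0.16 ± 0.12), Plat (-0.34 ± 0.15) and Plau (-0.17 ± 0.16) did not pass. Plat passed as lower under several alternatives, among them leaving out Nx mouse 7 (adjusted p = 0.0176).

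Genes of myofibroblasts and of PDGF and TGF-beta signalling rose in 17 of 23 cases, with 2 lower and 4 not passing. The myofibroblast actin gene Acta2 read 12.08, 11.76, 12.25 and 11.82 in Nx mice 4, 7, 8 and 10, against 10.30, 10.37, 10.56 and 10.82 in sham mice 1, 3, 5 and 6, and Tagln rose by 2.38 ± 0.22. Among the ligands and receptors, Tgfb2 (1.69 ± 0.18), Tgfb3 (2.20 ± 0.40), Pdgfa (1.47 ± 0.13), Pdgfb (1.76 ± 0.22), Tgfbr1 (1.06 ± 0.085) and Pdgfrb (1.55 ± 0.17) rose, and Tgfb1 (0.11 ± 0.10) did not pass. The matricellular target genes Ccn1 and Ccn2 rose by 2.48 and 1.39. Bmp7, a tubular antagonist of TGF-beta signalling, fell by 1.29, and Meox1 was lower by 0.17 at values near the floor, a call that did not hold without sham mouse 1 (adjusted p = 0.0547).

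Macrophage and antigen presentation genes were higher in the remnant. Of 28 monocyte and macrophage genes 27 rose, and the remaining gene Itgax (1.37 ± 0.61) did not pass, with a median of 3.86. With only the arrays of the comparison Itgax passed as higher (adjusted p = 0.000898). The lysosomal glycoprotein gene Cd68 read 8.36, 8.68, 8.80 and 8.37 in Nx mice 4, 7, 8 and 10, against 2.86, 2.93, 2.86 and 3.88 in sham mice 1, 3, 5 and 6. The lipopolysaccharide co-receptor gene Cd14 read 11.78, 11.04, 11.57 and 11.24 in Nx mice 4, 7, 8 and 10, against 5.82, 6.75, 6.62 and 7.00 in sham mice 1, 3, 5 and 6. Neither gene's groups overlapped. The complement C1q genes C1qa, C1qb and C1qc, made by resident macrophages, rose by 4.08, 4.27 and 5.15, Adgre1 by 3.62, the scavenger receptor Mrc1 by 4.13 and the chemokine receptor Ccr2 by 3.22, whereas the growth factor receptor gene Csf1r and the transcription factor gene Spi1 rose by only 0.49 and 0.32. Without Nx mouse 8 neither passed, with differences of 0.38 (adjusted p = 0.0946) and 0.21 (adjusted p = 0.247), and Spi1 also lost its call without Nx mouse 10 or any 1 sham mouse. All 8 MHC class II presentation genes rose, among them H2-Ab1 (3.54 ± 0.27), Cd74 (2.98 ± 0.24) and their transcriptional activator Ciita (2.20 ± 0.42), and all 10 MHC class I presentation genes rose by smaller amounts, with a median of 1.24.

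**Figure D3:**
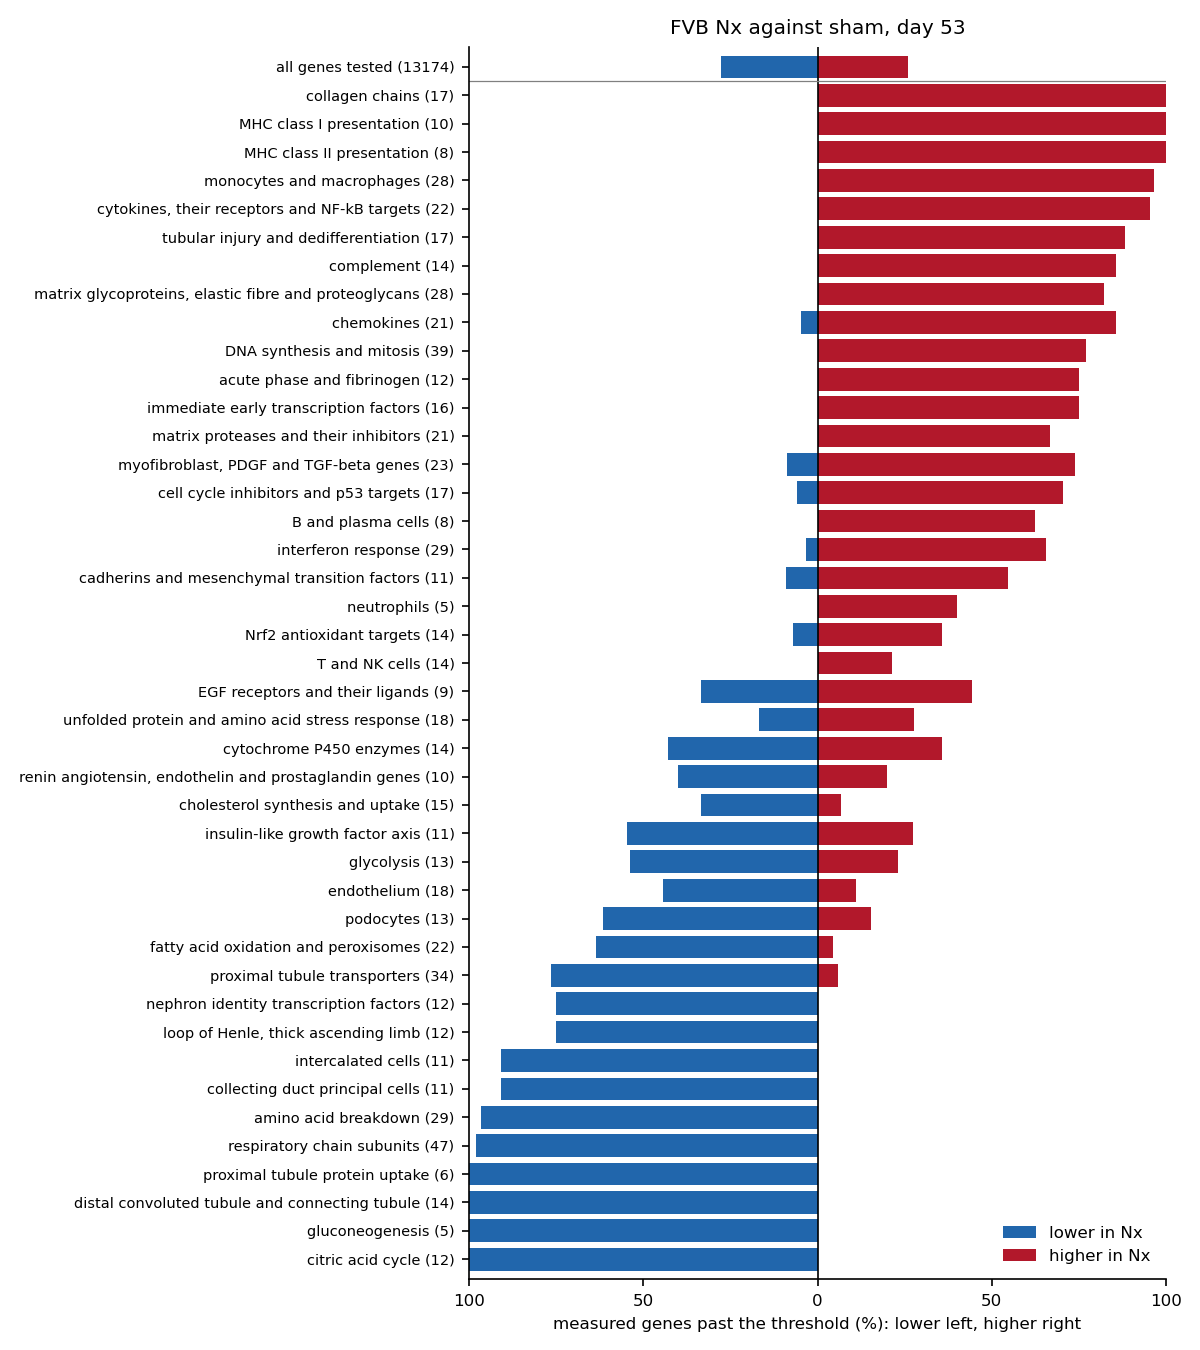
Share of measured genes that passed the threshold higher (right) and lower (left) in FVB Nx than in FVB sham kidneys at day 53, for 42 gene lists and, at the top, all 13174 genes; the number of measured genes stands beside each list. All collagen, MHC class I and MHC class II genes were higher, and all distal convoluted tubule, citric acid cycle, gluconeogenesis and protein uptake genes were lower.

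Several genes of lymphocytes and neutrophils were highest on single arrays. Of 14 T and NK cell genes 3 rose, Cd3d (1.09), Cd3g (0.98) and Ctla4 (0.22), a share under the 25.9% of all genes, and 11 did not pass. The calls of all 3 were lost without Nx mouse 4, without sham mouse 1, 3 or 5, and with every array shifted to 1 median, where 2 other genes of the list were lower. They were also lost without both Nx mice 4 and 7, whereas 6 of the 14 genes were higher without all 18 arrays of the series that had a pancreatic mean above 5, those 2 among them. Of 8 B and plasma cell genes 5 rose. The antibody joining chain gene Jchain read 12.76, 10.15, 10.80 and 9.86 in Nx mice 4, 7, 8 and 10, against 4.97, 5.63, 5.18 and 4.67 in sham mice 1, 3, 5 and 6, and the immunoglobulin heavy chain gene Ighm rose by 2.44 ± 0.26, each without overlap. Pou2af1, in contrast, read 7.29, 2.55, 3.02 and 2.20 in Nx mice 4, 7, 8 and 10, against 2.20, 2.20, 2.20 and 2.20 in sham mice 1, 3, 5 and 6. Mouse 4 alone was high, and without it the difference of Pou2af1 was 0.39 (adjusted p = 0.199). It also held the highest values of Mzb1 (6.11, against 2.23 to 2.24 on the other 7 arrays) and of the neutrophil gene S100a8, which read 11.11, 6.66, 8.37 and 3.87 in Nx mice 4, 7, 8 and 10, against 3.67, 5.06, 4.08 and 3.69 in sham mice 1, 3, 5 and 6. S100a8 differed by 3.38 ± 0.97 over all arrays, by 2.17 without mouse 4 and by 4.59 without mouse 10. Without mouse 4 the B and plasma cell list had 2 higher genes, and without both mice 4 and 7 likewise 2. Of 5 measured neutrophil genes 2, S100a8 and S100a9 (3.49 ± 0.99), rose, S100a9 by 2.33 without mouse 4 and by 4.64 without mouse 10. Neither passed without mice 4 and 7 (adjusted p = 0.125 and 0.109) or with only the arrays of the comparison (adjusted p = 0.0897 and 0.067).

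Chemokine and cytokine genes were higher in the remnant. Of 21 chemokine genes 18 rose, 2 did not pass and 1, the bone marrow homing factor Cxcl12, fell (-0.59 ± 0.16), which did not pass with only the arrays of the comparison (adjusted p = 0.101). The monocyte attractant gene Ccl2 read 8.56, 8.57, 8.54 and 7.93 in Nx mice 4, 7, 8 and 10, against 3.49, 2.50, 3.49 and 2.51 in sham mice 1, 3, 5 and 6. The T cell attractant gene Ccl5 read 7.99, 8.54, 8.54 and 8.01 in Nx mice 4, 7, 8 and 10, against 2.23, 2.37, 2.57 and 2.57 in sham mice 1, 3, 5 and 6, and the neutrophil attractant gene Cxcl1 read 11.34, 8.92, 10.72 and 10.34 in Nx mice 4, 7, 8 and 10, against 5.20, 5.25, 6.08 and 6.22 in sham mice 1, 3, 5 and 6. All 3 genes were higher on every Nx array than on any sham array. Of 22 cytokine, cytokine receptor and NF-kB target genes 21 rose and Il1rn (0.13 ± 0.34) did not pass. Il34, a ligand of the macrophage growth factor receptor, read 5.18, 5.15, 5.37 and 4.94 in Nx mice 4, 7, 8 and 10, against 2.20, 2.21, 2.20 and 2.21 in sham mice 1, 3, 5 and 6, which is at least 7.36-fold higher, with an adjusted p of 9.36e-23. The sham values lay under the filter value, which the 4 Nx arrays alone suffice to carry Il34 past. That p rests on a spread pooled over all 12 groups and does not measure the spread among the 4 Nx kidneys. Csf1, the other ligand of that receptor, rose by 3.35 ± 0.25, Il6 by 3.01 ± 0.54 (2.08 without Nx mouse 7), Il1b by 2.43 ± 0.40, and the NF-kB pathway genes Relb, Tnfaip3 and Nfkbia by 3.39, 3.09 and 1.25. Socs3, a feedback inhibitor of cytokine signalling, rose by 4.08 ± 0.27.

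Most listed complement and acute phase genes, known best from the liver, were higher in the remnant kidney. Of 14 complement genes 12 rose, including Cfi (5.03 ± 0.40), Masp1 (3.04 ± 0.26) and the receptor C3ar1 (5.07 ± 0.49), and Cd55 (0.22 ± 0.19) and Cfb (0.087 ± 0.13) did not pass. The complement gene C8a, which is outside this list, was among the largest falls given above. Of 12 acute phase and fibrinogen genes 9 rose. The fibrinogen chain gene Fgg read 13.57, 12.87, 13.19 and 13.03 in Nx mice 4, 7, 8 and 10, against 7.42, 7.38, 7.74 and 7.36 in sham mice 1, 3, 5 and 6. All Nx values were above all sham values, with Fga and Fgb higher by 3.95 ± 0.35 and 3.82 ± 0.69. The ceruloplasmin gene Cp rose by 3.44 ± 0.17, Lbp by 3.81 ± 0.32 and Serpina3n by 4.64 ± 0.55, and Orm1 (-0.43 ± 0.85) and Pigr (0.25 ± 0.24) did not pass. Of 6 measured liver markers 1 was higher, 2 were lower and 3 did not pass. The transthyretin gene Ttr read 9.37, 12.24, 12.66 and 9.24 in Nx mice 4, 7, 8 and 10, against 4.98, 5.38, 8.16 and 5.66 in sham mice 1, 3, 5 and 6, a difference of 4.83 ± 0.98 without overlap. Alb read 3.89, 4.47, 2.53 and 4.47 in Nx mice 4, 7, 8 and 10, against 7.63, 6.81, 9.55 and 7.77 in sham mice 1, 3, 5 and 6, and the hepatocyte genes Apoa1 and Ahsg were at the lowest value on all 4 Nx arrays and on the arrays of sham mice 1, 3 and 6. The part of liver RNA in the acute phase values was not tested.

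Interferon response genes rose moderately. Of 29 measured members 19 rose, 1 fell and 9 did not pass, with a median of 0.81. Gbp2, a guanylate-binding protein gene, read 10.82, 10.95, 11.20 and 10.22 in Nx mice 4, 7, 8 and 10, against 8.22, 8.55, 8.67 and 8.36 in sham mice 1, 3, 5 and 6. Oas1a, an enzyme activated by double-stranded RNA, read 6.56, 6.09, 6.52 and 5.38 in Nx mice 4, 7, 8 and 10, against 3.73, 3.48, 4.18 and 4.62 in sham mice 1, 3, 5 and 6. Both separated the groups fully, with differences of 2.34 ± 0.37 and 2.13 ± 0.30, and Ifih1 and Parp14 rose by 1.46 ± 0.17 and 2.19 ± 0.28. The member that fell was Rsad2, an antiviral enzyme gene, which read 8.86, 8.51, 8.02 and 8.05 in Nx mice 4, 7, 8 and 10, against 9.19, 9.14, 9.28 and 9.30 in sham mice 1, 3, 5 and 6, a difference of -0.87 ± 0.14. Ifit3 (-0.16 ± 0.28), Igtp (0.47 ± 0.52) and Irgm1 (0.51 ± 0.37) did not pass. Promoter windows of those interferon list genes that the naming rule picks and RefSeq lists, not all of which are described here (RefSeq, build GRCm38.p6, 250 bases before to 50 after the annotated start) were searched on both strands for GAAA, any 2 bases and again GAAA, a form of the interferon response element. It occurred in 11 of 16 windows, of 13 genes, against 3.443% of all 32851 windows. The windows of Oas1a and Gbp2, which rose, and of Rsad2, which fell, are shown in the direction of transcription with matches on either strand in capitals. In Oas1a 2 matches overlap.
Oas1a, chr5:120907476-120907775, minus strand: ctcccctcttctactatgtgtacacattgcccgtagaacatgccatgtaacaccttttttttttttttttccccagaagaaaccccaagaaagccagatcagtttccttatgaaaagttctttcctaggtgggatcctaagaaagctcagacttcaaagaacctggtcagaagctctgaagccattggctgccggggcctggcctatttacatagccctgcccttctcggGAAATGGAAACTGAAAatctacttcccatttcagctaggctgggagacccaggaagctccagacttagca
Gbp2, chr3:142620413-142620712, plus strand: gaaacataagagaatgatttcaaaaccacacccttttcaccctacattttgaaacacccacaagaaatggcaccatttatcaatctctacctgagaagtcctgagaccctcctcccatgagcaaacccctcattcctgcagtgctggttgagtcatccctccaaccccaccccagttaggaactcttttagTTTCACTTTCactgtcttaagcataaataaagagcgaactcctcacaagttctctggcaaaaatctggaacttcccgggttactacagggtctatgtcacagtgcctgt
Rsad2, chr12:26456403-26456702, minus strand: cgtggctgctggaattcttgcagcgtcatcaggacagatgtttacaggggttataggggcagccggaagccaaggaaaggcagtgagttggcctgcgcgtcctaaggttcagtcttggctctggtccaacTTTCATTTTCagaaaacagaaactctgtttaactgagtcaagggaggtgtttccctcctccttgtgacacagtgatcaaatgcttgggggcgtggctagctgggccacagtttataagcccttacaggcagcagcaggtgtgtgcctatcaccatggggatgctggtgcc
A match is a description of the letters and says nothing of binding. None of the 22 windows of 14 proximal tubule genes chosen in the same way held GTTAAT, any base and ATT, a form of the HNF1 site, which 0.399% of all windows hold, which says only that these letters are not in those windows.

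Specialised tubule genes were lower in the remnant from the proximal tubule to the collecting duct. Of 34 proximal tubule transporter genes 26 fell, 2 rose and 6 did not pass, with a median of -0.95. Slc22a7 read 7.93, 5.49, 5.11 and 5.43 in Nx mice 4, 7, 8 and 10, against 11.84, 12.26, 11.94 and 11.82 in sham mice 1, 3, 5 and 6. The phosphate transporter gene Slc34a3 read 6.76, 5.65, 5.71 and 7.07 in Nx mice 4, 7, 8 and 10, against 10.40, 10.00, 10.27 and 10.41 in sham mice 1, 3, 5 and 6. For both genes the 4 Nx values were under the lowest sham value. The glucose transporter gene Slc5a2 fell by 2.16, the neutral amino acid transporter gene Slc6a19 by 2.41 and the sodium-proton exchanger gene Slc9a3 by 1.25. Against this direction, the sulphate transporter gene Slc13a1 and the glucose transporter gene Slc5a1 rose by 1.23 ± 0.13 and 0.79 ± 0.11, and Slc22a6 (0.10 ± 0.14) did not pass. All 6 protein uptake genes fell, among them the megalin gene Lrp2 (-1.50 ± 0.11) and the cubilin gene Cubn (-1.23 ± 0.13).

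In the thick ascending limb 9 of 12 genes fell and 3 did not pass. The potassium channel gene Kcnj1 fell by 1.81, the calcium-sensing receptor gene Casr by 2.19 and the sodium-potassium-chloride cotransporter gene Slc12a1 by 1.17, whereas Umod fell by 0.33, a call lost without the arrays with adrenal RNA (-0.17, adjusted p = 0.0983). All 14 distal convoluted and connecting tubule genes fell, with a median of -1.55. The thiazide-sensitive cotransporter gene Slc12a3 read 9.84, 8.39, 8.73 and 9.39 in Nx mice 4, 7, 8 and 10, against 12.18, 11.98, 12.11 and 12.16 in sham mice 1, 3, 5 and 6. Pvalb read 4.29, 7.07, 4.05 and 3.28 in Nx mice 4, 7, 8 and 10, against 10.18, 10.01, 10.43 and 10.03 in sham mice 1, 3, 5 and 6. Neither gene's groups overlapped, and Trpm6, a magnesium channel gene, Calb1, a calcium-binding protein gene, and Kl, the FGF23 co-receptor gene, fell by 2.63, 1.90 and 1.81.

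Collecting duct genes were lower in both cell types. Of 11 principal cell genes 10 fell, including the vasopressin receptor gene Avpr2 (-1.28 ± 0.20) and the sodium channel subunit gene Scnn1g (-0.80 ± 0.13), and Aqp2 (-0.55 ± 0.25) did not pass. The water channel gene Aqp4 read 4.31, 8.38, 8.12 and 4.79 in Nx mice 4, 7, 8 and 10, against 11.21, 11.81, 11.06 and 12.07 in sham mice 1, 3, 5 and 6, with mice 7 and 8 less low than mice 4 and 10 and no overlap. Of 11 intercalated cell genes 10 fell and Insrr (-0.021 ± 0.11) did not pass. The chloride-bicarbonate exchanger genes of the opposite intercalated cell types both fell, Slc4a1 of acid-secreting cells by 3.05 and Slc26a4 of base-secreting cells by 3.07, and the ammonia transporter genes Rhbg and Rhcg fell by 2.41 and 2.67. Slc26a4 read 6.52, 6.58, 5.88 and 6.71 in Nx mice 4, 7, 8 and 10, against 9.49, 9.37, 9.62 and 9.48 in sham mice 1, 3, 5 and 6. Of 12 transcription factor and coactivator genes of nephron identity 9 fell, among them Ppargc1a (-1.47 ± 0.14), Esrra (-1.30 ± 0.16), Lhx1 (-1.49 ± 0.15) and Hnf4a (-0.78 ± 0.14), and Pax8 (0.026 ± 0.21), Tfcp2l1 (0.028 ± 0.074) and Hnf4g (0.22 ± 0.19) did not pass. With the mean of its kept probe sets Pax8 passed as higher (0.45, adjusted p = 0.0253).

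Glomerular and vascular genes were lower in part. Of 13 podocyte genes 8 fell, 2 rose and 3 did not pass. The nephrin gene Nphs1 read 3.51, 2.35, 2.41 and 3.51 in Nx mice 4, 7, 8 and 10, against 5.43, 4.51, 5.19 and 5.14 in sham mice 1, 3, 5 and 6, which put every Nx value under every sham value, and Podxl and Ptpro fell by 1.51 and 1.22. The adaptor gene Cd2ap and the nephrin relative Kirrel rose by 0.92 ± 0.086 and 1.71 ± 0.24, and Synpo (0.13 ± 0.10) and Wt1 (-0.29 ± 0.24) did not pass. Of 18 endothelial genes 8 fell, including the VEGF receptor gene Kdr (-1.11 ± 0.11) and the glomerular endothelial gene Ehd3 (-1.14 ± 0.11), 2 rose, Angpt2 (0.68 ± 0.20) and Cdh5 (0.41 ± 0.13), and 8, among them Pecam1 (-0.09 ± 0.16), did not pass. Without the arrays with adrenal RNA, Nx mice 8 and 10, neither Angpt2 nor Cdh5 passed (adjusted p = 0.0753 and 0.0571).

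Genes of mitochondrial energy production were lower by small amounts. Of 47 respiratory chain subunit genes 46 fell, with a median of -0.49, and Cox7c (0.26 ± 0.19) did not pass. Ndufs1, a complex I subunit gene, read 11.71, 11.83, 11.55 and 11.86 in Nx mice 4, 7, 8 and 10, against 12.67, 12.65, 12.54 and 12.82 in sham mice 1, 3, 5 and 6, a fall of under 2-fold in which no Nx value reached the sham range. All 12 citric acid cycle genes fell, with a median of -0.55, among them the isocitrate dehydrogenase subunit gene Idh3b (-0.81 ± 0.052) and the oxoglutarate dehydrogenase gene Ogdh (-0.93 ± 0.086). Of 22 fatty acid oxidation and peroxisome genes 14 fell, including Acadm (-1.07 ± 0.11) and Acaa2 (-1.56 ± 0.18), 7 did not pass and the pyruvate dehydrogenase kinase gene Pdk4 rose (1.43 ± 0.54), a call lost without Nx mouse 7, Nx mouse 8 or sham mouse 1 (adjusted p = 0.0978, 0.123 and 0.0876). Without the 2 Nx arrays with adrenal RNA, mice 8 and 10, 9 fatty acid genes were lower.

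Genes of amino acid breakdown were lower. Of 29 genes 28 fell, with a median of -1.18, and Dpys did not pass. Hpd read 6.69, 7.30, 6.45 and 6.31 in Nx mice 4, 7, 8 and 10, against 12.94, 12.12, 12.78 and 12.23 in sham mice 1, 3, 5 and 6. Every Nx value was under every sham value, and Bckdhb, of branched-chain amino acid breakdown, fell by 2.38, Gatm, of creatine synthesis, by 2.19 and Kynu, of tryptophan breakdown, by 2.41. All 5 gluconeogenesis genes fell, among them the glucose 6-phosphate transporter gene Slc37a4 (-1.12 ± 0.13) and Pck1 (-0.29 ± 0.10), the last with an adjusted p of 0.0516 without Nx mouse 4. Glycolytic genes divided by isoform: Hk2 (2.93 ± 0.49), Pfkp (1.20 ± 0.16) and Ldha (0.41 ± 0.081) rose, while Hk1 (-0.81 ± 0.13), Pfkm (-1.45 ± 0.13) and 5 others of the 13 fell. Without sham mouse 6, 4 glycolytic genes were lower. Of 15 cholesterol synthesis and uptake genes 5 fell, 1 rose, the squalene epoxidase gene Sqle (1.78 ± 0.17), and 9 did not pass. Over all genes 27.8% were lower and 25.9% higher. With every array shifted to 1 median 10 of the cholesterol genes were lower, and without Nx mouse 10, 9.

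Cytochrome P450 genes, whose enzymes oxidise drugs, steroids and lipids, went both ways. Of 14 measured genes 5 rose and 6 fell, with a median of -0.10. Besides Cyp27b1, described next, Cyp2j13 (3.03 ± 0.28), the oxysterol hydroxylase gene Cyp7b1 (2.29 ± 0.33), Cyp2d9 (2.24 ± 0.48) and Cyp1b1 (1.61 ± 0.21) rose. Cyp2d12, shown above, and the sterol demethylase gene Cyp51 (-1.67 ± 0.16) fell most. Genes of the Cyp2d family are similar in sequence, and how far their probe sets share signal was not tested.

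Vitamin D, vasoactive and growth factor genes changed in both directions, as did all genes, of which 25.9% were higher and 27.8% lower. Cyp27b1, the enzyme that activates vitamin D, read 6.84, 8.21, 7.97 and 7.07 in Nx mice 4, 7, 8 and 10, against 2.42, 2.90, 2.96 and 2.96 in sham mice 1, 3, 5 and 6, a difference of 4.72 ± 0.60 without overlap, whereas Cyp24a1, which breaks active vitamin D down, did not pass (-0.52 ± 0.70). Among 10 vasoactive genes the endothelin gene Edn1 rose by 3.59 ± 0.29 and the angiotensinogen gene Agt by 1.25 ± 0.17, and Ace (-1.23 ± 0.22), the receptor Agtr1a (-0.67 ± 0.13), Mme (-0.56 ± 0.12) and Ednrb (-0.38 ± 0.16) fell. The call of Ednrb was lost without Nx mouse 8, Nx mouse 10, sham mouse 1 or sham mouse 6, with a difference of -0.21 (adjusted p = 0.29) without Nx mouse 10. Of 11 insulin-like growth factor genes Igf1 (2.30 ± 0.28), Igfbp2 (3.32 ± 0.76) and Igfbp6 (1.68 ± 0.45) rose and 6 fell, led by Igf2 (-3.33 ± 0.78) and Igfbp5 (-1.56 ± 0.18). Of 11 cadherin and mesenchymal transition genes 6 rose, led by Cdh11 (2.24 ± 0.29), and the kidney cadherin gene Cdh16 fell by 0.50. Without the adrenal-bearing mice 8 and 10, 3 of these 11 genes were higher.

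The same comparison in C57BL/6 mice, on the same day after the same surgery, called fewer genes. There 1938 of 13174 genes passed (14.7%), 1058 higher (8.03%) and 880 lower (6.68%). The test of the difference between the 2 strains' effects, which share no array, called 3839 genes (29.1%), with the FVB effect above the C57BL/6 effect for 1874 (14.2%) and below it for 1965 (14.9%). With every array shifted to 1 median the split was 1343 above and 2704 below. The largest positive difference was that of Ankrd1, where the FVB effect was 5.95 ± 0.43, the C57BL/6 effect was 1.19 and their difference 4.76 ± 0.61. Krt20, Mcm6, the complement factor I gene Cfi, Smpdl3b and Clec4n followed, with differences of 4.70, 4.69, 4.63, 4.60 and 4.53. The lowest differences were those of the fat gene Adipoq (-5.48 ± 1.71), Serpina6 (-4.99 ± 0.52), Sptssb (-4.60 ± 1.78), Serpina1b (-4.55 ± 0.75), Hpd (-4.47 ± 0.73) and Cyp2d12 (-4.44 ± 0.69). Adipoq followed fat RNA on individual arrays and did not pass in FVB alone (2.01 ± 1.21).

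By gene group, the test of the difference was passed as follows. For tubular injury 15 of 17 genes had the higher effect in FVB, for the cell cycle 27 of 39, for macrophages 20 of 28, for collagens 12 of 17, for cytokines 18 of 22 and for MHC class II all 8. On the lower side stood all 14 distal convoluted tubule genes, 42 of 47 respiratory chain genes, 25 of 29 amino acid breakdown genes, 22 of 34 proximal transporters and 5 of 6 protein uptake genes. Of 29 interferon genes 4 had a higher and 1 a lower effect in FVB, against 14.2% and 14.9% of all genes. Of 28 matrix glycoprotein genes 9 had a higher effect. Slc12a3 illustrates the pattern, with an FVB effect of -3.02, a C57BL/6 effect of -0.37 and a difference of -2.64 ± 0.28 (adjusted p = 3.89e-09). Postn, a matricellular gene, had effects of 4.28 in FVB (3.51 without sham mouse 1) and 4.06 in C57BL/6, and their difference of 0.21 ± 0.85 did not pass.

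**Figure D4:**
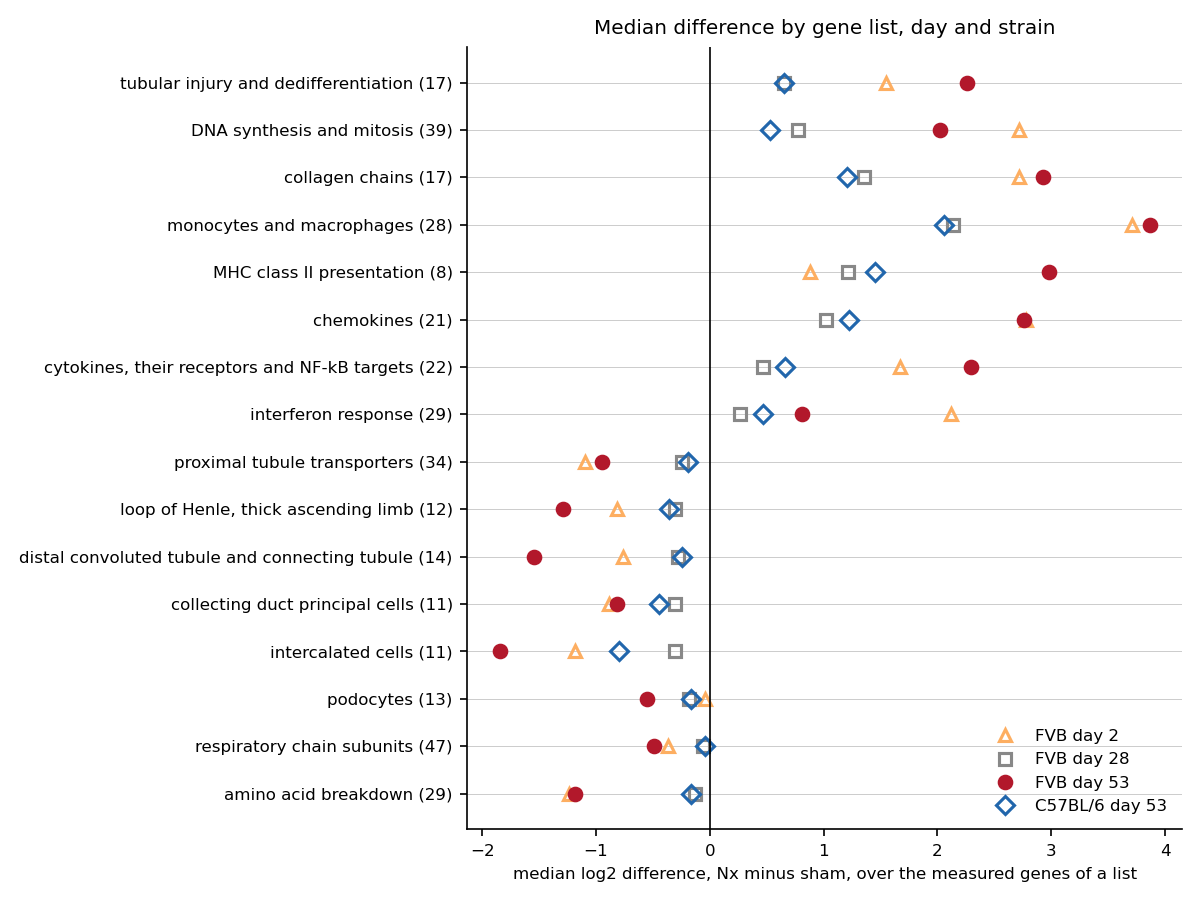
Median log2 difference between Nx and sham kidneys for 16 gene lists in FVB mice at days 2, 28 and 53 and in C57BL/6 mice at day 53; each point is the median over a list's measured genes. In FVB mice 14 of the 16 medians lie nearer to 0 at day 28 than at day 2 or day 53, the exceptions being MHC class II and podocyte genes, and all 16 C57BL/6 medians of day 53 lie nearer to 0 than the FVB medians of that day.

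Within FVB mice the day 53 effect was set against the day 28 effect, again with no shared array. At day 28, 2129 genes had passed (16.2%), 968 higher (7.35%) and 1161 lower (8.81%). The difference between the effects passed for 3462 genes (26.3%), above the day 28 effect for 1799 (13.7%) and below it for 1663 (12.6%). With every array shifted to 1 median the split was 1223 above and 2327 below. Krt20 had the highest difference, with an effect of 5.25 at day 53 and 0.21 at day 28 (5.03 ± 0.30, adjusted p = 2.24e-15). Next came the serum amyloid gene Saa1 (4.81), Lcn2 (4.30), Serpina10 (4.23), the transthyretin gene Ttr (4.19) and Havcr1 (4.15). FVB sham mouse 4 of day 28 had a liver marker mean of 10.19, against 4.91 to 5.06 in sham mice 1, 2 and 3 of that day. Its acute phase list mean was 7.27, against 4.97 to 5.21. The part of this array in the differences of Saa1, Serpina10 and Ttr was not tested. The lowest were Pvalb (-5.04), Cyp2d12 (-4.89), Slc22a7 (-4.46), Bhmt (-3.93), Syn3 (-3.53) and Hpd (-3.42). Injury genes differed in 16 of 17 cases, MHC class II genes in 7 of 8 and cytokine genes in 17 of 22, all upward. Respiratory chain genes differed downward in 42 of 47 cases, distal convoluted tubule genes in 14 of 14 and amino acid breakdown genes in 25 of 29. Mmp12 had an effect of 7.07 at day 53 and of 6.97 at day 28, and the difference of 0.095 ± 0.82 did not pass.

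At day 2, in the acute phase after surgery, 7221 genes had passed the threshold (54.8%), 3273 higher (24.8%) and 3948 lower (30%). The effects of day 53 and day 2 differed for 1549 genes (11.8%), upward for 864 (6.56%) and downward for 685 (5.2%). Fitted to the 16 arrays of these 4 groups alone, the test called 998 genes, and without arrays with adrenal RNA it called 550 upward and 559 downward. Of 29 interferon genes 18 had a lower effect at day 53 than at day 2, and 11 did not pass. Oasl2 had an effect of 1.98 at day 53 and 4.29 at day 2, Usp18 of 0.65 and 3.55, and Mx1 of 0.58 and 3.43. The day 53 call of Mx1 was lost in 6 of 8 fits that each left out 1 array, with 0.30 (adjusted p = 0.322) without Nx mouse 8. The lowest differences of all were those of Slfn4 (-6.36 ± 0.44), Vcan (-4.90 ± 1.09), the collagen-processing gene Cthrc1 (-4.17 ± 0.71), Pvalb (-3.77 ± 0.72), Slc22a7 (-3.75 ± 0.68) and Itm2a (-3.64 ± 0.43). Vcan did not pass at day 53 and was higher by 4.66 at day 2.

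**Figure D5:**
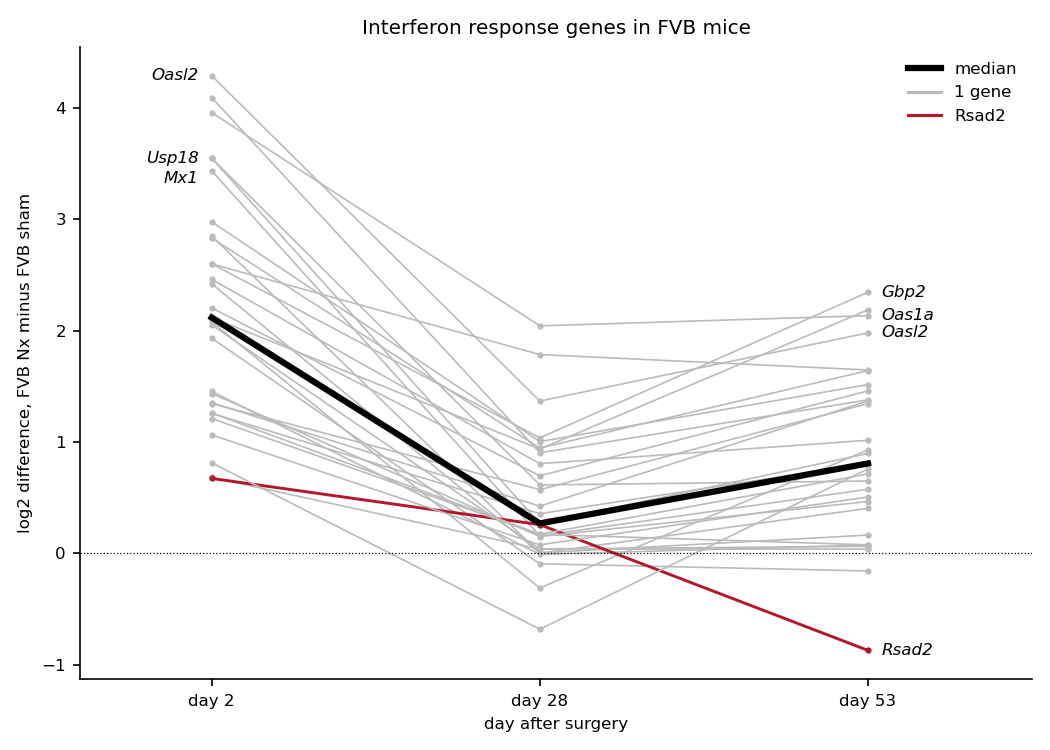
Log2 difference between Nx and sham kidneys of the 29 measured interferon response genes in FVB mice at days 2, 28 and 53; each line is a gene and the heavy line is the median, which lies at 2.12 at day 2, 0.27 at day 28 and 0.81 at day 53. Rsad2 is the member that was lower at day 53.

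On the higher side against day 2 stood Cyp27b1, whose effect was 4.72 at day 53 and -1.94 at day 2 (difference 6.65 ± 0.84, adjusted p = 5.24e-07), the fibrinogen genes Fgb (4.84), Fga (3.93) and Fgg (3.82), Ttr (4.06) and the P450 gene Cyp4a12a (3.68). MHC class II genes had a larger effect at day 53 in 5 of 8 cases, with Cd74 at 2.98 on day 53 and 0.71 on day 2. The mean of that list lay at 8.13 to 8.65 in FVB Nx kidneys on day 53 and at 7.50 to 8.76 on day 2. In FVB sham kidneys it lay at 5.37 to 5.80 on day 53 and, higher and wider, at 6.37 to 8.16 on day 2. The larger effect thus lay largely in the sham kidneys. Distal genes were lower by more at day 53, in 7 of 14 cases for the distal convoluted tubule and 7 of 11 for intercalated cells. Further, 8 of 47 respiratory chain genes, 1 of 17 collagen genes and 2 of 28 macrophage genes had a lower effect at day 53 than at day 2, and 1, 0 and 1 a higher effect. Of all genes 5.2% had a lower and 6.56% a higher effect, and the lower shares of collagen and macrophage genes are close to that. Among macrophage genes Gpnmb, of lipid-laden macrophages, had an effect of 5.05 at day 53 and 8.37 at day 2 (-3.32 ± 0.78). Slc7a7, an amino acid transporter gene, had an effect of -0.99 at day 53 and -3.39 at day 2 (2.40 ± 0.34). Il34 passed all 3 tests of a difference, with 2.89 ± 0.15 against C57BL/6, 2.81 ± 0.15 against day 28 and 2.84 ± 0.15 against day 2. These 3 tests share the FVB day 53 effect and are not independent. The 4 FVB Nx arrays of day 53 alone suffice to carry Il34 past the filter on low values, and its FVB sham values of that day lay under the filter value.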

How the data were processed

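Whole-kidney RNA was hybridised to 48 Affymetrix mouse genome arrays, 4 for each of 12 groups defined by the array titles. The values are log2 probe set values as deposited by the authors, made with MAS5 per the submitters' processing notes. The 48 columns have unequal medians and run from 2.1979 to 16.1753, with 32.057% of values at the lowest. Further steps by the authors are not given in the sources used here, so no between-array normalisation was added, and depth does not apply to arrays, whose number limits the precision.

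Probe sets above 2.2774, the 40th percentile of all values, on at least 4 arrays were kept. Of 45101 probe sets, 34958 had 1 gene symbol in the platform annotation, 932 several and 9211 were not listed, and 24197 kept probe sets with 1 symbol gave 13174 genes, 6290 of them with more than 1 probe set. limma 3.58.1 (R 4.3.3) fitted a mean per group to all 48 arrays, with an intensity trend and Benjamini-Hochberg adjustment over all 13174 genes. Tested on simulated data with 13174 genes, the fit of the day 53 comparison recovered 47 of 50 genes lowered by 1 and 45 of 50 raised by 1 on the log2 scale. Exact permutation tests were two-sided.

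The comparison, its members and the 51 gene lists, of which 42 are described and 9 mark other tissues, were chosen with earlier results of these data known. Lists are described by counts, with no set test. Named genes were the 12 highest and 12 lowest differences without overlap, and in each list up to 6 members with the smallest p, those against the majority and up to 3 that did not pass. They also include the 6 highest and 6 lowest differences between effects and, in each list, up to 3 with the smallest p there. Predicted gene models were skipped. Another 33 genes were chosen after their values were seen, among them Acta2, Adgre1, Ccr2, Cd68, Csf1r, Egfr, Fn1, Il1b, Il6, Mrc1, Mx1, Oasl2, Pecam1, Postn, Slc12a1, Spi1, Tgfb1, Umod and Usp18, as were the 4 tissue genes Cyp11b1, Tnnc2, Ucp1 and Hba-a1.

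Alternatives were quantile normalisation, a shift to 1 median, no filter or a stricter one, only the arrays of the comparison, array weights, no trend, robust estimation, the mean of a gene's probe sets, a pancreatic covariate, a random block of mouse number, leaving out arrays with pancreatic RNA and leaving out each replicate. Leaving out the 3 arrays with Cyp11b1 above 5, and leaving out only the FVB Nx day 53 arrays with pancreatic RNA in place of all 18 such arrays of the series, were chosen after seeing the data.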

Additional observations from a re-analysis of the deposited data

Results flagged for a closer look

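The test of a difference between effects called 3839 genes against C57BL/6 at day 53, 3462 genes against FVB at day 28 and 1549 genes against FVB at day 2. Some of these genes moved in opposite directions, past the threshold in both comparisons. Those named here and not in the report were chosen after their values were seen.

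Against C57BL/6 at day 53 there were 51 such genes, 37 lower and 14 higher in FVB Nx than in FVB sham kidneys. Transporters of the tubule were among those lower in FVB. Slc13a4, a sulphate transporter gene, read 4.80, 4.91, 4.83 and 5.34 in Nx mice 4, 7, 8 and 10, against 7.21, 7.46, 7.83 and 8.50 in sham mice 1, 3, 5 and 6. The FVB groups did not overlap, and its effect was -2.78 ± 0.26 in FVB and 1.18 in C57BL/6 mice, a difference of -3.96 ± 0.37 (limma, adjusted p = 3.78e-10). The effect of the organic anion transporter gene Slc22a8 was -1.72 in FVB and 0.65 in C57BL/6 mice, a difference of -2.37 ± 0.28. The anion exchanger gene Slc26a6 had effects of -0.77 in FVB and 1.16 in C57BL/6 mice (-1.93 ± 0.30), and the triglyceride synthesis gene Mogat2 of -0.95 and 1.89 (-2.83 ± 0.41). The FVB call of Slc26a6 was lost without Nx mice 4 and 7 (adjusted p = 0.0848). Serpina1b, an antitrypsin gene, differed by -4.55 ± 0.75, with -1.52 in FVB and 3.02 in C57BL/6 mice, but its FVB groups overlapped and its FVB call was lost without sham mouse 3 or sham mouse 6. In the other direction, the angiotensinogen gene Agt had effects of 1.25 in FVB and -0.48 in C57BL/6 mice, a difference of 1.73 ± 0.24 (adjusted p = 8.62e-07). The heparan sulphate sulfotransferase gene Hs6st2, the cytokine signalling inhibitor gene Socs2 and the transcription factor genes Cebpd and Nfil3 were higher in FVB Nx kidneys by 1.81, 1.42, 1.09 and 1.39. In C57BL/6 mice their effects were -0.64, -1.12, -1.37 and -1.21, which made differences of 2.45, 2.54, 2.47 and 2.59. The FVB groups overlapped for Mogat2 and Nfil3, whose FVB calls were lost with only the arrays of the comparison (adjusted p = 0.104 and 0.0645). The FVB calls of Mogat2 and Cebpd were lost without Nx mouse 8 (adjusted p = 0.0745 and 0.0654).

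Between day 53 and day 28 of FVB mice 26 genes had opposite effects, 14 of them higher at day 53. Mogat2 and Slc26a6 were again lower at day 53, where their effects were -0.95 and -0.77, with 1.83 and 0.80 at day 28 and differences of -2.78 and -1.57. The lipid signalling gene Pafah1b3 had an effect of 0.94 at day 53 and -0.41 at day 28 (1.35 ± 0.16). Between day 53 and day 2 there were 90 such genes, 62 of them higher at day 53. Cyp27b1 had the largest difference, 6.65 ± 0.84. Tmem252, a membrane protein gene, read 11.96, 11.77, 11.52 and 11.14 in Nx mice 4, 7, 8 and 10, against 9.27, 9.60, 9.52 and 9.83 in sham mice 1, 3, 5 and 6. All Nx values lay above all sham values, and its effect was 2.04 at day 53 and -1.07 at day 2, a difference of 3.11 ± 0.27 (adjusted p = 7.75e-11). The steroid-converting enzyme genes Akr1c21 and Hsd17b2 had effects of 1.95 and 1.29 at day 53 and of -0.50 and -1.54 at day 2, with differences of 2.44 and 2.82. The day 53 groups overlapped for Hsd17b2, whose day 53 call was lost with only the arrays of the comparison (adjusted p = 0.0688). For the sulphate transporter gene Slc13a1 the effects were 1.23 at day 53 and -0.61 at day 2 (1.85 ± 0.19). Genes lower at day 53 and higher at day 2 included Fitm1, of lipid droplet formation, with effects of -1.64 at day 53 and 1.36 at day 2 (-3.00 ± 0.42). The interferon-induced nucleotide kinase gene Cmpk2 had effects of -0.69 at day 53 and 0.80 at day 2 (-1.49 ± 0.22), and Rsad2 of -0.87 and 0.67 (-1.54 ± 0.20).

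Single arrays stood apart from the other 3 of their group by Dixon's 95% criterion. Chance meets it in about 1 in 20 groups of normally distributed values. The criterion is relative to the range of the group, so a flagged value can lie close to the others, as in the proximal transporter list (distance 0.0481). Where the other 3 values are equal, as for Lcn2 and Krt20, the 1 in 20 does not apply. The criterion was met by 6 of 102 group means over the measured genes of a list and by 50 of 534 groups of single gene values. All 6 list means were high on sham arrays. In sham mouse 5 these were the liver marker list (6.38, against 5.00 to 5.04 in the other 3 sham mice), the fatty acid list (11.94) and the proximal transporter list (11.55). In sham mouse 6 these were the cell cycle list (4.34), the myofibroblast list (7.27) and the pancreatic list (2.97). Among genes given array by array, Nx mouse 4 was high in Pou2af1 (7.29) and in Slc22a7 (7.93, against 5.11 to 5.49 in the other 3 Nx mice). Nx mouse 8 was high in Cdkn1a (8.85) and Nx mouse 10 low in Ccl2 (7.93). Sham mouse 6 was high in Cd68 (3.88), sham mouse 5 in Fgg (7.74) and sham mouse 3 in Lcn2 (4.45), while sham mouse 1 was low in Cyp27b1 (2.42) and sham mouse 3 in Krt20 (2.99). None of these 9 values reached the range of the other group.

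The adrenal enzyme gene Cyp11b1, which lay under the filter and entered no comparison between groups, read 9.66 in Nx mouse 8 and 8.95 in Nx mouse 10, against the lowest value of the data in all 4 sham mice.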

How the results depend on the processing

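The day 53 comparison called 6611 to 6949 genes when each array was left out in turn, 3095 to 3420 higher and 3301 to 3628 lower, and all 14 other alternatives kept the total within 1.5 times of 7075. Shifting every array to 1 median raised the lower count to 5872, with 2473 higher, by its own construction, since the Nx arrays have the higher medians. Fitted to its own 8 arrays, the comparison called 6042 genes, 2895 higher and 3147 lower. Leaving out 1 array gave 3392 to 3946 genes against C57BL/6 (1584 to 1938 with the higher and 1729 to 2048 with the lower effect in FVB), 3001 to 3585 against day 28 (1492 to 1943 and 1465 to 1741) and 1325 to 1706 against day 2 (707 to 967 and 588 to 739). The count against day 2 was 998, with 539 higher, from the arrays of the comparison alone, and its higher count was 550 without arrays with Cyp11b1 above 5, where fewer arrays entered. No paired analysis was possible because the Nx mice 4, 7, 8 and 10 and the sham mice 1, 3, 5 and 6 share no number. A random replicate block of mouse number within strain and day over all 48 arrays (consensus correlation 0.1264) gave 7074 genes at day 53, 3410 higher and 3664 lower.

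Of 267 named genes 225 passed, 26 of these lost the call in at least 1 of 22 alternatives and none changed sign past the threshold. Calls of 16 of them, Cd3d, Cd3g, Cebpd, Csf1r, Ctla4, Ednrb, Meox1, Mogat2, Mx1, Mzb1, Pck1, Pdk4, Pou2af1, Prss2, Serpina1b and Spi1, were lost when 1 array was left out, and those of Angpt2, Cdh5, Cxcl12, Hsd17b2, Nfil3, S100a8, S100a9, Slc26a6, Tnnc2 and Umod under other alternatives. Another 15 named genes did not pass in the fit used here and gained a call in at least 1 alternative. They were Aqp2, Cthrc1, Fos, Il1rn, Irgm1, Itgax, Pax8, Plat, Sptssb, Synpo, Tgfb1, Timp3, Tk1, Ucp1 and Usp18. Several gene list counts that moved by over 1.5 times are given with their lists. Besides these, the EGF receptor list had 5 lower genes with a shift to 1 median, the cadherin and mesenchymal list 2, against 1, without Nx mouse 8, sham mouse 1 or sham mouse 5, and the antioxidant list 2, against 1, without Nx mouse 4 or 10. Among other-tissue lists the skeletal muscle list lost all 6 calls when fitted to the 8 arrays alone and the pancreatic list had 13 higher genes, against 1, without the arrays with Cyp11b1 above 5. Skeletal muscle had 3 higher genes, against 6, without Nx mouse 7, pancreas 3, against 1, without Nx mouse 10, and brown fat 3 lower genes, against 1, without sham mouse 1. Leaving out 1 array also moved the fold of Aqp4 (Nx mouse 4 or 7), Jchain and Slc22a7 (Nx mouse 4), Pvalb and Saa1 (Nx mouse 7) and Ttr (Nx mouse 8 or sham mouse 5) by 1.51 to 1.74 times, with the calls retained. The number of arrays, 4 a group, and values at the lowest level limit the precision.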
